A study of Mus musculus with 18 samples.

Results

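To see where the tricarboxylic acid (TCA) cycle changed around the synthesis of itaconate, the transcripts of 9 genes were followed in bone marrow-derived macrophages (BMDMs). They were Acod1 (also called Irg1), the enzyme that makes itaconate, and 8 enzymes of the cycle and its surroundings: Cs, Idh1, Idh3a, Ogdh, Suclg1, Sdha, Fh1 and Mdh2. These genes were picked by symbol from the 25926 rows of the expression table, and all 9 were found. Each had a mean above the minimum used for testing in every comparison, so none was lost to a filter.

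The data were RNA sequencing of 18 samples in 3 groups of 6, all from BMDMs of C57BL/6 mice grown for 7 days with macrophage colony-stimulating factor (M-CSF, 50 ng/mL). A Transwell membrane with pores of 0.4 µm kept the BMDMs, above, from touching the renal tubular epithelial cells (TECs) of wild-type mice, below. NC cultures had TECs without crystals, and their BMDMs were given phosphate-buffered saline (PBS). In the COM group the TECs had 24 h with calcium oxalate monohydrate (COM) at 100 µg/mL, a crystal common in kidney stones, and the BMDMs again received PBS. In the COM+Met group the TECs were handled as in COM and the BMDMs received Met at 5.0 mM for 24 h, an agent that the labels do not spell out. No group received Met without crystals, and whether the 6 samples of a group were separate cultures or mice is not stated, so the p-values cover only how far these samples differ, and part of that may be technical. Expression is given as FPKM, the fragments per kilobase of transcript scaled to the fragments mapped in the sample, so values may be compared between genes per length.

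In the mitochondrion, citrate synthase (Cs) joins acetyl-CoA to oxaloacetate, and the citrate becomes isocitrate by way of cis-aconitate. Acod1 draws cis-aconitate off at this step and decarboxylates it to itaconate, a product for which inflammatory macrophages are known. Itaconate inhibits succinate dehydrogenase, whose catalytic flavoprotein is Sdha, further along the cycle. Between these points lie the isocitrate dehydrogenases (Idh3a is the catalytic subunit of the mitochondrial NAD-linked enzyme, and Idh1 is the NADP-linked enzyme of the cytosol), the oxoglutarate dehydrogenase complex (Ogdh) and succinate-CoA ligase (Suclg1, its alpha subunit). After succinate dehydrogenase, fumarase (Fh1) makes malate and mitochondrial malate dehydrogenase (Mdh2) restores oxaloacetate.

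By the GENCODE M21 annotation on GRCm38, all 9 were protein-coding genes on separate loci. Acod1 (ENSMUSG00000022126) spans chr14:103046977-103056573 on the plus strand, Cs spans chr10:128337734-128362479 (plus), Idh3a chr9:54586334-54604661 (plus) and Idh1 chr1:65158616-65186500 (minus). Ogdh spans chr11:6291633-6356642 (plus), Suclg1 chr6:73248382-73276911 (plus), Sdha (ENSMUSG00000021577) chr13:74322254-74350280 (minus), Fh1 chr1:175600374-175625635 (minus) and Mdh2 chr5:135778480-135790398 (plus). Promoter sequence was found in RefSeq (GRCm38.p6) for every member but Idh3a. The 250 bases before the start site are printed for 4 genes: Acod1, which rose most; Sdha, the enzyme that itaconate inhibits; Fh1, which was among those that fell most; and Mdh2, the enzyme of the cycle that was higher in COM+Met than in NC. Each reads 5′ to 3′ on the strand of the gene, and capitals mark a TATA box (TATAAA) in Acod1 and the element CTCGCGAG in Mdh2.
Acod1: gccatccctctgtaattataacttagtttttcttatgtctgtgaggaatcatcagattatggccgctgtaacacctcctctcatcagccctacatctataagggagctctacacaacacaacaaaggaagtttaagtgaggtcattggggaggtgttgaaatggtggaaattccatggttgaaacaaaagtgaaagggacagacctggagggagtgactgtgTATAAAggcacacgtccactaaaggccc
Sdha: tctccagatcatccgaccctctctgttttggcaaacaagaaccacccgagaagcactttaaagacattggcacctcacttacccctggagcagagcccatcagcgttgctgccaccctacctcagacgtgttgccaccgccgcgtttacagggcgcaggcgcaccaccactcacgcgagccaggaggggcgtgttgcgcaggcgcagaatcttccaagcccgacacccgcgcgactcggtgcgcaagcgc
Fh1: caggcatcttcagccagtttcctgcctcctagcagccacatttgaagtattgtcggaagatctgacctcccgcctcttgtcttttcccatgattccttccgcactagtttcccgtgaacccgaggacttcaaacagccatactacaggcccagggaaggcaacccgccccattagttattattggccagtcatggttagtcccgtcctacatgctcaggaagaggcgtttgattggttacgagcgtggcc
Mdh2: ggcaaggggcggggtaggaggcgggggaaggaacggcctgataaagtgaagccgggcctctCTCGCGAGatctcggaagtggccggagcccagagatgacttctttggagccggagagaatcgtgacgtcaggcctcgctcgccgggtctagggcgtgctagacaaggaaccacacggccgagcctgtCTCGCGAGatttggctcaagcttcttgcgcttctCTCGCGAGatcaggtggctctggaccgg

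These windows lie at chr14:103046762-103047011 (Acod1, plus), chr13:74350241-74350490 (Sdha, minus), chr1:175625636-175625885 (Fh1, minus) and chr5:135778399-135778648 (Mdh2, plus). The RefSeq starts of Acod1, Sdha and Mdh2 lie inside the GENCODE spans given above, so these windows run partly into those spans. Acod1 had 44.4% G and C and 2 CG dinucleotides, where the quartiles over 32851 promoters of the same length were 45.2% and 61.2%, and 2 and 16. The cycle enzymes were richer, with 61.6% and 21 CG dinucleotides in Sdha, 52.8% and 10 in Fh1, and 63.2% and 23 in Mdh2. The TATA box of Acod1 began 28 bases before the start, and 12.4% of all promoters hold these letters on either strand. In Mdh2 the element CTCGCGAG, which reads the same on both strands and is in 0.761% of all promoters, occurred 3 times, its first bases 189, 62 and 28 bases before the RefSeq start. Those at 62 and 28 bases lie within the GENCODE span of Mdh2. Other patterns were searched on both strands: GAAANNGAA, a core of the interferon-stimulated response element (7.13% of promoters), TTCNNNGAA, a STAT pattern (7.02%), GGGANTTTC, an NF-kappa B pattern (0.941%), and GCGCATGCG, a core of NRF1 sites (1.45%). Among the members, Suclg1 held the interferon pattern, 160 bases before its start, and Ogdh held the NRF1 core at 2 of its 6 annotated starts. A match describes letters in this window and says nothing of binding.

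Before the results, some libraries must be named. Within NC, the libraries NC-5 and NC-6 had less Acod1 and more of each cycle enzyme but Suclg1 than NC-1 to NC-4, and within COM the libraries COM-4 to COM-6 had less of each cycle enzyme than COM-1 to COM-3. Nos2, the inducible nitric oxide synthase, split the same COM libraries, at 4.42 to 5.20 FPKM in COM-1 to COM-3 and 170 to 260 FPKM in COM-4 to COM-6. Pairwise correlations within a group ran from 0.938 to 0.995 in NC, from 0.888 to 0.995 in COM and from 0.989 to 0.995 in COM+Met (Pearson's r of log2(FPKM + 1) over 10751 genes). Summed FPKM ranged from 380731 in COM-6 to 449186 in COM-4. FPKM gives no read depth, so no counting interval could be set.

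All 8 macrophage markers examined (among them Adgre1, Csf1r and Cd68) averaged at least 1 FPKM in each group, but their levels were not constant. Between COM and NC, 3 were higher (12.7% of all genes tested) and 1 lower (40.6%). Adgre1 averaged 112 FPKM in NC and 577 FPKM in COM. Csf1r averaged 347 FPKM in NC-1 to NC-4 and 141 FPKM in NC-5 and NC-6. Of 12 tubular epithelial markers, Krt18, Umod and Havcr1 were listed at 0 throughout, and the sum of the list was 10.9 to 18.2 FPKM in NC, 0.468 to 1.37 FPKM in COM and 0.0575 to 0.332 FPKM in COM+Met. Cdh1 made up most of the NC sum, with a mean of 12.9 FPKM, and was the only 1 of the 12 that averaged at least 1 FPKM there. Krt8, Cdh16, Lrp2, Cubn and Slc34a1 were below 0.1 FPKM in every NC library. The sum of 12 neutrophil markers, several of which macrophages also express, was 551 and 570 FPKM in NC-5 and NC-6 and 919 to 1074 FPKM in the other NC libraries. It was 1237 to 1323 FPKM in COM-1 to COM-3, 1774 to 1866 FPKM in COM-4 to COM-6 and 738 to 860 FPKM in COM+Met, while the neutrophil genes Ly6g and Retnlg were listed at 0 in COM. Most of the COM sum was Lcn2, which averaged 23.5 FPKM in NC, 672 FPKM in COM-1 to COM-3 and 1595 FPKM in COM-4 to COM-6. Of the 10 neutrophil markers tested between COM and NC, 2 were higher (Lcn2 and Mmp9) and 4 lower (S100a9, Ngp, Ltf and Cxcr2), with a median log2 change of −0.92, and S100a9 went from a mean of 171 FPKM in NC to 8.43 FPKM in COM. The neutrophil sums differed between the sets of libraries within NC and COM described above, but the genes did not move together. Only Lcn2 and Csf3r had higher means in COM-4 to COM-6 than in COM-1 to COM-3. S100a8 averaged 292 FPKM in COM-1 to COM-3 and 45.5 FPKM in COM-4 to COM-6, and Mmp9 58.8 and 6.34 FPKM. In NC, Mmp8 averaged 454 FPKM in NC-1 to NC-4 and 99.7 FPKM in NC-5 and NC-6. S100a8, Ltf and Cxcr2 were higher in NC-5 and NC-6. The part of these genes in the results was not tested. In bulk RNA, fewer cells of a type and less RNA per cell cannot be told apart.

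**Figure D1:**
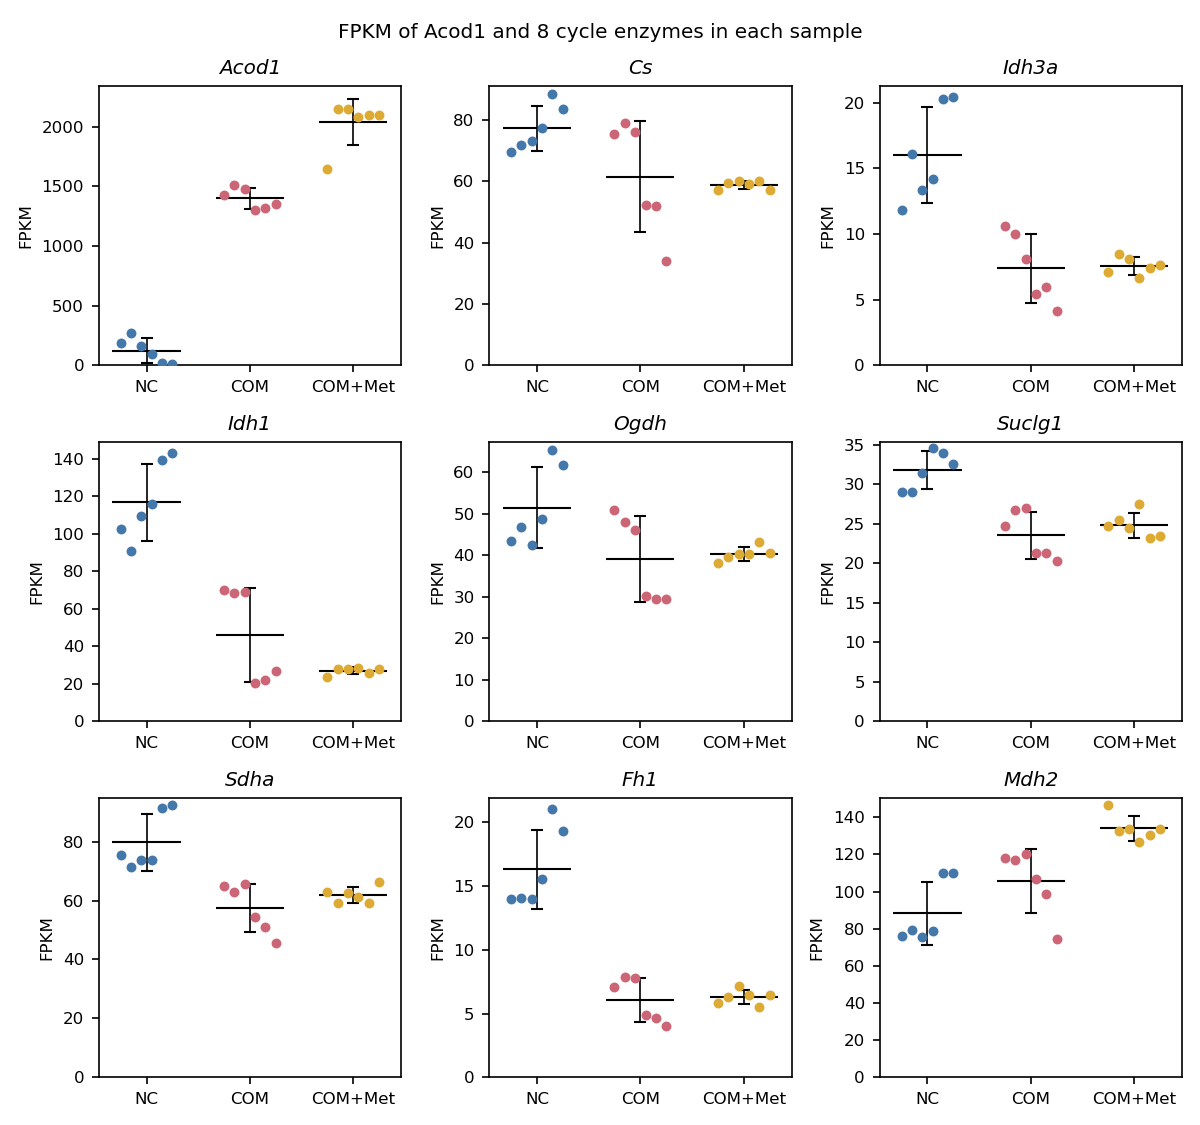
FPKM (y axis, linear, from 0, its own scale in each panel) of Acod1 and the 8 cycle enzymes in the 6 samples of NC, COM and COM+Met (x axis). Points are samples in the order of their numbers, lines are means and bars are SD. Acod1 was at most 271 FPKM in NC and at least 1305 FPKM with crystals, Fh1 and Idh3a did not overlap between NC and COM, and the COM points of Idh1 fell into 3 near 69 FPKM and 3 between 20.6 and 26.9 FPKM.

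Acod1 was the member that changed most. Its level in NC was 190, 271, 164 and 93.8 FPKM in NC-1 to NC-4 and 18.2 and 13.4 FPKM in NC-5 and NC-6. In COM it ranged from 1305 to 1514 FPKM with a median of 1393 FPKM, and in COM+Met from 1650.0 to 2153 FPKM with a median of 2099.7 FPKM. The 3 groups did not overlap. Means were 125 ± 102 FPKM in NC, 1400.2 ± 87.4 FPKM in COM and 2038.5 ± 193 FPKM in COM+Met (SD, n = 6 each), so that the mean in COM was 11.2 times that in NC. By mean level Acod1 ranked 477 among all genes in NC, 26 in COM and 20 in COM+Met.

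Each comparison was made by limma on log2(FPKM + 1) over its own 12 samples, and a gene passed at a Benjamini-Hochberg adjusted p below 0.05 over all genes tested. Fold changes on this scale understate the change of low genes. From NC to COM, Acod1 rose by 4.17 ± 0.65 (log2, SE, adjusted p = 0.000203). Across the 10900 genes tested the median change was −0.27, and 1382 genes passed higher and 4423 lower. Scaling by median-of-ratios size factors, which sets that median near 0, gave 2578 higher and 2544 lower, and quantile normalisation gave 2475 and 2782. Changes of members are therefore also given after subtraction of that median, here called relative to all genes, which for Acod1 left 4.43. Without NC-5 and NC-6 the rise of Acod1 was 3.05 (adjusted p = 3.37e-06).

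Of the 9 members, 6 passed between COM and NC. Of these 1 was higher, Acod1, where 12.7% of all genes tested were higher, and 5 were lower, Idh3a, Idh1, Suclg1, Sdha and Fh1, where 40.6% were lower. The groups did not overlap for these same 6 members, against 38.2% of all genes. With a change of at least 2-fold as well, 4 members were called, Acod1, Idh3a, Idh1 and Fh1, against 17.7% of all genes. Idh3a was short of 2-fold without COM-4, COM-6, NC-5 or NC-6 (−0.93 to −0.99), and without COM-4 to COM-6 together Idh3a (−0.67), Idh1 (−0.73) and Fh1 (−0.996) were all short of it, while each still passed. The median change of the 8 cycle enzymes was −0.45, or −0.18 relative to all genes.

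Citrate synthase, which feeds the branch point, did not pass. Cs had 69.4 to 88.4 FPKM in NC (median 75.3), 75.5, 78.9 and 76.0 FPKM in COM-1 to COM-3 and 52.3, 52.1 and 34.0 FPKM in COM-4 to COM-6. The upper COM libraries lay within the NC range and the lower ones beneath it. The difference was −0.38 ± 0.19 (adjusted p = 0.106), or −0.11 relative to all genes.

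After the branch point, both members among the isocitrate dehydrogenases fell. Idh3a had 11.8 to 20.5 FPKM in NC (median 15.2) and 4.15 to 10.6 FPKM in COM (median 7.05), with no overlap. Its mean in NC was 2.17 times that in COM, a change of −1.06 ± 0.21 (adjusted p = 0.00112) and of −0.79 relative to all genes. Idh1, which makes NADPH from isocitrate outside the mitochondrion, had 91.0 to 143 FPKM in NC (median 113). In COM it had 70.1, 68.3 and 68.8 FPKM in COM-1 to COM-3 and 20.6, 22.1 and 26.9 FPKM in COM-4 to COM-6. Every COM library was below every NC library, and the COM libraries formed a higher and a lower set. Idh1 changed by −1.50 ± 0.33 (adjusted p = 0.00206). Without COM-4 to COM-6 the change was −0.73 (adjusted p = 0.00167), and without COM-1 to COM-3 it was −2.27 (adjusted p = 3.5e-06), so it passed with either set of COM libraries but was short of 2-fold with COM-1 to COM-3 alone.

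In the middle of the cycle the differences were smaller. Ogdh, the decarboxylating subunit of its complex, had 42.5 to 65.4 FPKM in NC (median 47.7), 46.1 to 51.0 FPKM in COM-1 to COM-3 and 29.4 to 30.2 FPKM in COM-4 to COM-6. As with Cs, COM-1 to COM-3 lay within the NC range, and the difference of −0.41 ± 0.18 did not pass (adjusted p = 0.0678). Suclg1 had 29.0 to 34.6 FPKM in NC (median 32.0) and 20.2 to 27.0 FPKM in COM (median 23.0). These groups did not overlap, and Suclg1 fell by 0.42 ± 0.10 on the log2 scale (adjusted p = 0.00323).

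Sdha had 71.4 to 92.4 FPKM in NC (median 74.7) and 45.7 to 65.4 FPKM in COM (median 58.5), again with no overlap. Its mean in NC was 1.39 times that in COM, and the change was −0.47 ± 0.12 (adjusted p = 0.00514). Relative to all genes it was −0.20. With median-of-ratios size factors neither Sdha (−0.16, adjusted p = 0.163) nor Suclg1 (−0.11, adjusted p = 0.211) passed. Each passed in 24 of 25 alternatives, quantile normalisation among them. Their falls were thus close to that of the median gene, and only median-of-ratios scaling kept them from passing.

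Fh1 and Mdh2, which follow succinate dehydrogenase, went apart. Fh1 had 13.95 to 21.0 FPKM in NC (median 14.8) and 4.03 to 7.88 FPKM in COM (median 5.99), the mean in NC being 2.70 times that in COM. The change was −1.31 ± 0.17 (adjusted p = 4.34e-05), or −1.04 relative to all genes. Mdh2 had 75.3 to 79.1 FPKM in NC-1 to NC-4 and 110.3 and 110 FPKM in NC-5 and NC-6, with 117 to 120 FPKM in COM-1 to COM-3 and 107, 98.5 and 74.6 FPKM in COM-4 to COM-6. Its groups overlapped, and the difference of 0.26 ± 0.15 did not pass (adjusted p = 0.160). With median-of-ratios size factors Mdh2 was higher in COM by 0.58 (adjusted p = 0.00166), and it also passed without NC-5 and NC-6 (0.43, adjusted p = 0.0314) and without COM-4 to COM-6 (0.44, adjusted p = 0.0252). Without COM-1 to COM-3 the difference was 0.082 (adjusted p = 0.704), and Mdh2 passed in 5 of 25 alternatives.

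**Figure D2:**
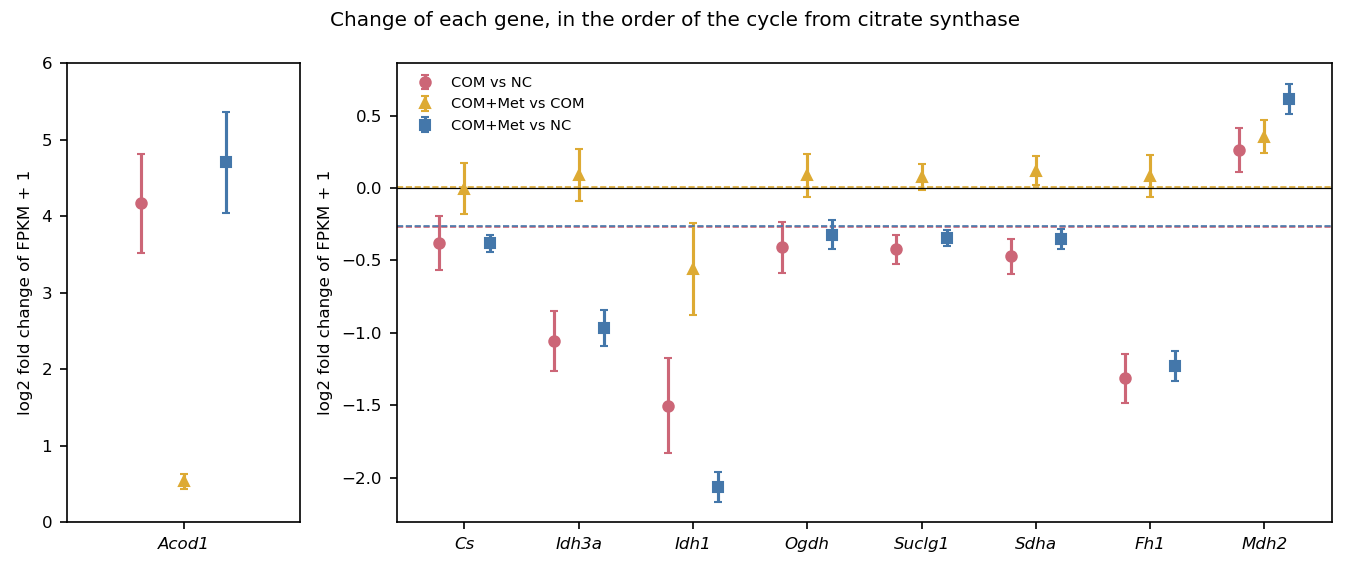
Log2 fold change of FPKM + 1 (y axis) for Acod1 (left panel) and for the 8 cycle enzymes in the order of the cycle (right panel, its own scale). Markers are estimates of the 3 comparisons, bars are SE, and dashed lines are the medians of all genes tested (−0.27 for COM against NC, −0.26 for COM+Met against NC and near 0 for COM+Met against COM). Against NC, Idh3a, Idh1 and Fh1 lie well below the dashed lines, Mdh2 lies above them, and Cs, Ogdh, Suclg1 and Sdha lie closer to them.

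Apart from the added 1 FPKM, which matters most for low genes, a ratio to Cs in the same sample does not depend on its scaling. The log2 ratio of FPKM + 1 of each other member to that of Cs was therefore compared over the 12 samples with an exact permutation test, two-sided, in 24 tests in all, where 6 against 6 samples can give no p below 0.00216. From NC to COM, the ratio to Cs rose by 4.54 for Acod1 and by 0.64 for Mdh2, and it changed by −0.68 for Idh3a, −1.12 for Idh1 and −0.93 for Fh1. In each of these 5 the groups did not overlap (exact permutation p = 0.00216, Benjamini-Hochberg adjusted 0.00519). For Ogdh, Suclg1 and Sdha the differences were −0.03, −0.04 and −0.09 (exact permutation p = 0.790, 0.790 and 0.455). Measured against citrate synthase, the transcripts of Idh3a, Idh1, Fh1 and Mdh2 thus changed, and no change was detected for Ogdh, Suclg1 or Sdha. Cs itself had 75.5 to 78.9 FPKM in COM-1 to COM-3 and 34.0 to 52.3 FPKM in COM-4 to COM-6, and a lower Cs raises every ratio. Of the 24 tests, 12 passed after adjustment.

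**Figure D3:**
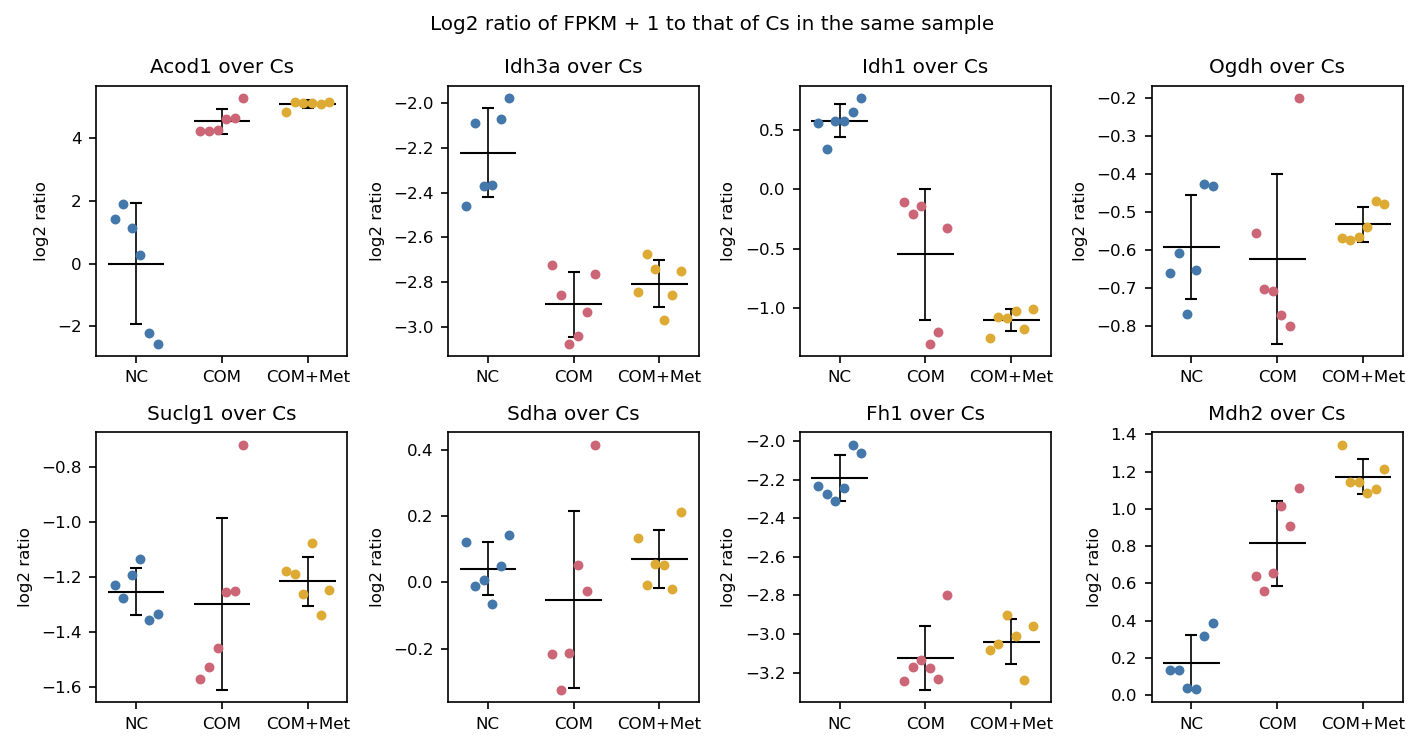
Log2 ratio of FPKM + 1 of each member to that of Cs in the same sample (y axis, its own scale in each panel) in NC, COM and COM+Met (x axis). Points are samples, lines are means and bars are SD (n = 6). The ratios of Idh3a, Idh1 and Fh1 in NC lie above those of both crystal groups and those of Acod1 and Mdh2 lie below them, while Ogdh, Suclg1 and Sdha overlap in all 3 groups.

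The other enzymes of the cycle varied within each step. Of 17 further isoenzymes, subunits and assembly factors read, 15 were tested between COM and NC, since Ogdhl and Sdhaf3 were below 1 FPKM. Of these, 8 were lower (40.6% of all genes) and 1 higher (12.7%), with a median change of −0.49. Aco1, the cytosolic aconitase that also binds iron-responsive RNA elements, fell by 1.01 (log2, adjusted p = 0.00111). Within the NAD-linked isocitrate dehydrogenase, the regulatory subunit Idh3g fell with Idh3a, by 0.86 (adjusted p = 0.000337), and Idh3b differed by −0.19 (adjusted p = 0.147). Idh2, the mitochondrial NADP-linked enzyme, fell by 1.30 (adjusted p = 0.00239). Idh2 had 29.6 to 61.5 FPKM in NC and Aco1 26.9 to 37.8 FPKM. In COM-1 to COM-3, Idh2 had 21.1 to 22.9 FPKM and Aco1 19.7 to 21.6 FPKM. In COM-4 to COM-6, Idh2 had 7.13 to 12.2 FPKM and Aco1 9.94 to 12.2 FPKM.

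In the oxoglutarate dehydrogenase complex the transacylase Dlst fell by 0.76 (adjusted p = 0.00119), where Dld, a subunit shared with pyruvate dehydrogenase, differed by −0.15 (adjusted p = 0.344). Among the beta subunits of succinate-CoA ligase, the GTP-forming Suclg2 fell by 1.43 (adjusted p = 0.000828). Its NC values were 4.12 to 4.34 FPKM in NC-1 to NC-4 and 11.8 and 12.6 FPKM in NC-5 and NC-6, all above the 1.03 to 2.25 FPKM of COM. The ATP-forming Sucla2 differed by −0.09 (adjusted p = 0.417).

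Succinate dehydrogenase did not move as a unit. The iron-sulphur subunit Sdhb, the partner of Sdha in the catalytic part, had 70.0 to 76.1 FPKM in NC, 104 to 110 FPKM in COM-1 to COM-3 and 54.8 to 77.8 FPKM in COM-4 to COM-6, a difference of 0.19 (adjusted p = 0.331). Of the membrane anchors, Sdhc fell by 0.49 (adjusted p = 0.0384) and Sdhd differed by −0.52 (adjusted p = 0.0756). NC had 24.6 to 30.9 FPKM of Sdhc and 82.2 to 104 FPKM of Sdhd. COM-1 to COM-5 had 18.3 to 24.7 FPKM of Sdhc and 64.0 to 83.1 FPKM of Sdhd. COM-6 was far lower for both, at 10.0 and 26.8 FPKM. The ratio of Sdha to Sdhb, which was not tested, was 0.964 to 1.24 in NC and 0.570 to 0.832 in COM, without overlap. In COM+Met this ratio was 0.789 to 0.998, which overlapped both NC and COM. Cytosolic Mdh1 fell by 0.46 (adjusted p = 0.0375), and the ratio of Mdh2 to Mdh1 was 1.80 to 2.03 in NC and 2.78 to 3.47 in COM.

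**Figure D4:**
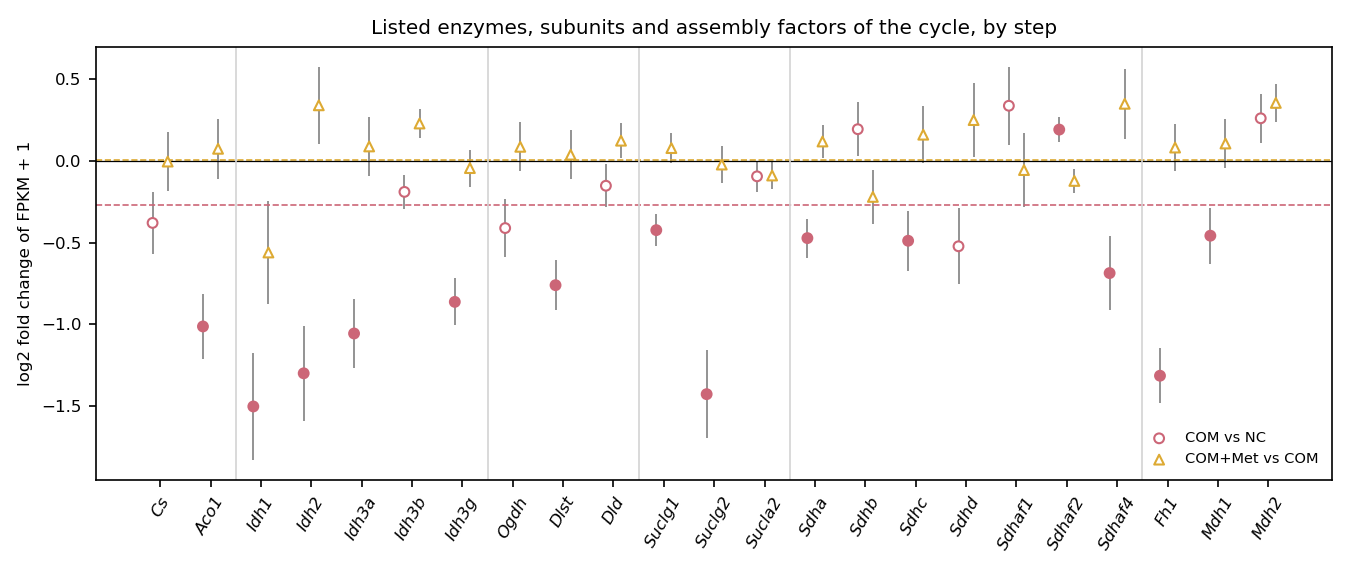
Log2 fold change of FPKM + 1 (y axis) for 23 tested enzymes, subunits and assembly factors of the cycle (x axis), with grey lines between the steps from citrate synthase to malate dehydrogenase. Circles are COM against NC, triangles COM+Met against COM, filled symbols passed at an adjusted p below 0.05, bars are SE and dashed lines are the medians of all genes. Most filled circles lie low, at Aco1, the isocitrate dehydrogenases, Dlst, Suclg2 and Fh1, and no triangle is filled.

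To ask what Met changed in crystal-exposed cultures, COM+Met was compared with COM. Its COM libraries are those compared with NC above, so a low COM value enters both comparisons. Acod1 was higher by 0.54 ± 0.10 (adjusted p = 0.00408), its mean being 1.46 times that in COM, and every COM+Met library was above every COM library. It did not pass when all 18 samples were fitted together, with the spread of NC included (adjusted p = 0.539). No other member passed, where 5.77% of the 10364 genes tested were higher and 7.58% lower, and none was called at 2-fold, against 2.22% of all genes.

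Mdh2 had 127 to 147 FPKM in COM+Met, above all 6 COM libraries, and its mean was 1.27 times that in COM. The difference was 0.35 ± 0.12 (adjusted p = 0.0599), and it passed with median-of-ratios size factors (0.38, adjusted p = 0.00521) and with quantile normalisation (0.36, adjusted p = 0.00714). Acod1 and Mdh2 were the 2 members whose groups did not overlap here, against 11.2% of all genes.

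The other enzymes varied little within COM+Met, and their means lay between that of COM-1 to COM-3 and that of COM-4 to COM-6. Cs had 57.1 to 60.1 FPKM, Ogdh 38.2 to 43.1 FPKM and Idh3a 6.66 to 8.47 FPKM in COM+Met. Sdha had 59.2 to 66.3 FPKM, Suclg1 23.2 to 27.5 FPKM and Fh1 5.49 to 7.16 FPKM. Differences from COM were −0.0040 ± 0.18 for Cs, 0.09 ± 0.18 for Idh3a, 0.09 ± 0.15 for Ogdh, 0.08 ± 0.09 for Suclg1, 0.12 ± 0.10 for Sdha and 0.08 ± 0.15 for Fh1, with adjusted p from 0.458 to 0.991. Idh1, at 23.4 to 28.5 FPKM in COM+Met, was near COM-4 to COM-6 and far below COM-1 to COM-3, a difference of −0.56 ± 0.32 (adjusted p = 0.267).

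For most enzymes the direction depended on which COM libraries were used. Against COM-1 to COM-3 alone, 7 members passed, Acod1 and Mdh2 higher and Cs, Idh3a, Idh1, Ogdh and Fh1 lower, with Idh1 at −1.33 (adjusted p = 8.15e-09). Against COM-4 to COM-6 alone, 7 passed and all were higher, Acod1, Idh3a, Ogdh, Suclg1, Sdha, Fh1 and Mdh2, with Sdha at 0.29 (adjusted p = 0.0249). Acod1 (0.46 and 0.61) and Mdh2 (0.18 and 0.53) were higher against either set. In ratio to Cs, Acod1 was higher by 0.54 (exact permutation p = 0.0152, adjusted 0.0303) and Mdh2 by 0.36 (exact permutation p = 0.00649, adjusted 0.0142) over all COM libraries. Idh1 differed by −0.56 (exact permutation p = 0.0584) and the other 5 by 0.08 to 0.12 (exact permutation p from 0.240 to 0.597).

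Against NC, COM+Met differed for all 9 members, 2 higher (19.3% of the 10786 genes tested) and 7 lower (55.9%). Groups did not overlap for 8 of them, all but Ogdh, where 57.6% of all genes did not overlap, and 3 were called at 2-fold, Acod1, Idh1 and Fh1, against 19.3% of all genes. With median-of-ratios size factors Fh1 was at −0.95, short of 2-fold. The NC libraries are those of the first comparison, so the values are given side by side and not as further support. Acod1 was higher by 4.70 ± 0.66 (adjusted p = 2.62e-05) and Mdh2 by 0.62 ± 0.10 (adjusted p = 0.000122). Idh1 was lower by the most, at −2.06 ± 0.10 (adjusted p = 1.69e-09), its mean in NC being 4.34 times that in COM+Met. Fh1 was at −1.23 (adjusted p = 2.08e-07) and Idh3a at −0.97 (adjusted p = 1.03e-05).

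The remaining 4 lay near the median of all genes, which was −0.26. Cs was at −0.38, Suclg1 at −0.34, Sdha at −0.35 and Ogdh at −0.32. With median-of-ratios size factors these 4 did not pass, at −0.07 for Cs, −0.02 for Ogdh, −0.04 for Suclg1 and −0.04 for Sdha, and the genes passing turned from 2080 higher and 6034 lower to 3893 higher and 3716 lower. With quantile normalisation Ogdh did not pass, while Cs, Suclg1 and Sdha still passed lower. Cs, Suclg1 and Sdha each passed in 22 of 23 alternatives. In ratio to Cs, Acod1 was higher by 5.09, Mdh2 by 1.00, and Idh3a, Idh1 and Fh1 were at −0.58, −1.68 and −0.85 (exact permutation p = 0.00216 for each, with no overlap). Ogdh, Suclg1 and Sdha differed by 0.03 to 0.06 (exact permutation p from 0.348 to 0.567).

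The order of the transcript levels changed between groups. In NC the mean FPKM ran from Acod1 (125) through Idh1 (117), Mdh2 (88.3), Sdha (79.7), Cs (77.3), Ogdh (51.4) and Suclg1 (31.8) to Fh1 (16.3) and Idh3a (16.0). Neighbours from Acod1 to Cs overlapped in their ranges, as did Fh1 and Idh3a. In COM+Met the order was Acod1 (2038.5), Mdh2 (134), Sdha (61.9), Cs (58.8), Ogdh (40.3), Idh1 (26.9), Suclg1 (24.8), Idh3a (7.57) and Fh1 (6.29). Idh1 thus went from above Mdh2 to below Ogdh, and Acod1 stood far above every enzyme of the cycle.

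The ratio of Acod1 to Sdha, the enzyme that itaconate inhibits, had medians of 1.75 in NC, 24.1 in COM and 34.2 in COM+Met. The summed FPKM of the 8 cycle enzymes had medians of 446 in NC, 357 in COM and 361 in COM+Met, with 239 to 422 across the COM libraries and 355 to 366 in COM+Met. The mean of this sum was 478, 347 and 361 FPKM in NC, COM and COM+Met. The cytosolic Idh1, which is part of it, had means of 117, 46.2 and 26.9 FPKM, so much of the lower sum lay in Idh1. The ratio of Idh1 to Idh2 was 2.27 to 3.66 in NC and 1.33 to 1.47 in COM+Met, while in COM it spread from 1.69 to 3.78.

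Genes that bring carbon into the cycle or take it out were read from lists of 58 pathway genes in all, of which 51 were tested. Between COM and NC, 2 were higher (12.7% of all genes) and 28 lower (40.6%). At pyruvate entry 7 of 12 tested were lower, among them Mpc2, a subunit of the mitochondrial pyruvate carrier (−1.13, adjusted p = 0.00297), and Pdk1, a kinase that inhibits pyruvate dehydrogenase (−1.06, adjusted p = 0.000139). In citrate export and use 3 of 6 were lower, with fatty acid synthase Fasn at −1.77 (adjusted p = 0.00034). In glutamine and amino acid entry 4 of 6 were lower, including the glutamine transporter Slc1a5 (−1.14, adjusted p = 0.00199) and glutamate dehydrogenase Glud1 (−1.15, adjusted p = 3.08e-05). Glud1 had 85.3 to 114 FPKM in NC and 34.6 to 54.9 FPKM in COM. Means in COM-1 to COM-3 and COM-4 to COM-6 were 14.5 and 10.7 FPKM for Mpc2 and 9.13 and 2.92 FPKM for Fasn. They were 16.4 and 7.86 FPKM for Slc1a5 and 53.1 and 36.2 FPKM for Glud1. Pdk1 went the other way, at 2.88 and 4.54 FPKM. The 2 of the 51 genes that were higher in COM than in NC were Slc25a10 and Sdhaf2. Slc25a10, the mitochondrial carrier of dicarboxylates such as succinate and malate, rose by 0.83 (adjusted p = 0.0147). It had 10.0 to 14.9 FPKM in NC and 22.8 to 29.0 FPKM in COM-1 to COM-5, but 8.07 FPKM in COM-6. Sdhaf2, which attaches the flavin to Sdha, rose by 0.19, its adjusted p just under the threshold. Its groups overlapped, at 10.1 to 11.7 FPKM in NC and 11.3 to 13.9 FPKM in COM.

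With Met, 3 of these 51 genes passed against COM, 1 higher (5.77% of all genes) and 2 lower (7.58%). Me1, the cytosolic malic enzyme that turns malate into pyruvate, had 3.89 to 7.06 FPKM in COM and 2.06 to 2.68 FPKM in COM+Met (−0.90, adjusted p = 0.000764). Pdk3, another pyruvate dehydrogenase kinase, had 10.98 to 19.3 FPKM in COM and 8.04 to 9.47 FPKM in COM+Met (−0.80, adjusted p = 0.00438). Pdp1, the phosphatase that reactivates pyruvate dehydrogenase, had 2.70 to 3.19 FPKM in COM and 3.94 to 5.31 FPKM in COM+Met (0.45, adjusted p = 0.00217). None of the 3 overlapped between the groups, where 11.2% of all genes did not overlap. Of the 51 genes, 2 lay wholly higher and 2 wholly lower in COM+Met than in COM. No listed enzyme of the cycle itself passed, of 23 tested. Against NC, 37 of the 51 genes were lower in COM+Met (55.9% of all genes) and 4 were higher (19.3%), among the lower ones Glud1 (−1.55), Pdk1 (−1.46), Suclg2 (−1.45), Fasn (−1.35) and the mitochondrial malic enzyme Me2 (−1.10).

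Genes that the study followed were read beside Acod1. Between COM and NC, the deacetylase Sirt1 fell by 0.53 (adjusted p = 0.0139), from 5.59 to 7.13 FPKM in NC to 2.69 to 7.34 FPKM in COM. Hif1a, a transcription factor of hypoxia and inflammation, rose by 0.42 (adjusted p = 0.0271). Its groups overlapped, at 30.4 to 40.2 FPKM in NC and 36.2 to 64.0 FPKM in COM. The cytokine Il1b rose by 3.55 (adjusted p = 0.00254) and Nos2 by 3.84 (adjusted p = 0.00922). Arg1, an arginase, fell by 0.74 (adjusted p = 0.0132). It was low and overlapped, at 0.598 to 3.08 FPKM in NC and 0.349 to 1.30 FPKM in COM. Il1b split the NC libraries as Acod1 did, with 60.04 to 209 FPKM in NC-1 to NC-4 and 8.04 and 4.18 FPKM in NC-5 and NC-6. From COM to COM+Met, Il1b went the other way from Acod1 and fell by 1.64 (adjusted p = 5.61e-06), from 455 to 609 FPKM to 158 to 184 FPKM. Sirt1 differed by 0.30 (adjusted p = 0.309) there and Hif1a by −0.13 (adjusted p = 0.550). Nos2 did not pass between COM+Met and COM. Its 67.1 to 89.1 FPKM in COM+Met lay between the 4.42 to 5.20 FPKM of COM-1 to COM-3 and the 170 to 260 FPKM of COM-4 to COM-6. Arg1 fell short of the filter and was not tested there, with at most 0.0438 FPKM in COM+Met.

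Over the 18 samples, the genes whose log2(FPKM + 1) was most like that of Acod1 among 10323 genes were Dyrk2 (Pearson's r = 0.993), Clmp (0.991), Cxcl16 (0.988), Irf9 (0.987) and Gem (0.986). Those most like Sdha were Idh2 (0.987), Cby1 (0.977), Nme1 (0.976), Cad (0.975) and Dhrs7 (0.974). These values describe samples that share groups and the splits within NC and COM.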

How the data were processed

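RNA sequencing of 18 BMDM samples (NC, COM and COM+Met, 6 each) was read from the FPKM values that the authors deposited, which are scaled to gene length and library total and were not pooled. Bowtie 0.12.2, mm8 and mm9 appear in the submitters' processing notes with no role, and neither the quantifier nor the annotation or filters used are given in the sources read. FPKM holds no counts, so read depth was unknown and no count test was run. Since FPKM is relative, a gene falls where abundant genes rise.

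Groups were taken from the sample labels. Genes that averaged at least 1 FPKM in the 12 samples of a comparison were fitted on log2(FPKM + 1) with limma 3.58.1 in R 4.3.3 (lmFit, eBayes with a trend), with Benjamini-Hochberg adjustment over all genes tested. A gene passed at an adjusted p below 0.05 and was called at a change of at least 2-fold as well. Ratios to Cs were compared by two-sided exact permutation tests. The script was tested on simulated data. Members, gene lists and tests were chosen with earlier results of these data known, and the TATA box, the element CTCGCGAG and CG counts were added after the promoters had been read. Named are all members, the other isoenzymes and subunits of their enzymes, pathway genes called in any comparison, the study's genes, the 5 genes most like Acod1 and the 5 most like Sdha. Other list genes (Me1, Pdk3, Pdp1, Slc25a10, Sdhaf2) were named after their values were seen. The NC numbers and those of the other groups share only a number and were not used as pairs. An item on the gene lists, and the alternative that used it, are not reported here. Alternatives were other pseudocounts (0.1 and 5), filters, scalings, weights, blocks and sample sets. Positions were taken from GENCODE M21 (GRCm38) by Ensembl identifier, and promoters from RefSeq (GRCm38.p6).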

Additional observations from a re-analysis of the deposited data

Results flagged for a closer look

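In each member and group, the sample farthest from the others was compared with the range of its group, in 27 groups of 6, where chance alone marks about 1 in 20. COM+Met-1 stood apart for both members so marked. Its Acod1 level was 1650.0 FPKM, beneath the next lowest COM+Met library at 2078 FPKM, a gap of 0.851 of the range. Mdh2 was 147 FPKM in the same library, above the next at 134 FPKM, a gap of 0.643 of the range. Without this library both still passed against NC, and Acod1 still passed against COM.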

How the results depend on the processing

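The 12 ratios to Cs that passed stayed within 1.5 times that number in every alternative run. Between COM and NC, 5 to 8 members passed across the alternatives, and Acod1, Idh3a, Idh1 and Fh1 passed in all. With sample weights (arrayWeights), Cs and Ogdh turned to 0.045 and 0.049 there. Between COM+Met and COM, 2 members passed with median-of-ratios size factors and 2 with quantile normalisation, 0 with all 18 samples in one fit (Acod1 0.54, adjusted p = 0.539), 7 with weights, 7 without COM-4 to COM-6 and 7 without COM-1 to COM-3. Genes passing were 1384 as reported, 744 with the replicate block, 6680 with weights, 6349 without COM-4 to COM-6 and 2439 without COM-1 to COM-3. With the block the same members passed, same-numbered samples did not deviate together (r from −0.22 to 0.06), and no sample correlated best with its own number. Leaving out single libraries gave 943 to 2753 genes, the highest without COM-6, and 1 to 2 members, the second being Mdh2 without COM-6 (0.26, adjusted p = 0.0130). The same leave-outs turned Cs (−0.16 to 0.079), Idh3a (−0.040 to 0.19) and Fh1 (−0.0081 to 0.16). Cs was 0.017 with median-of-ratios size factors and 0.37 without COM-1 to COM-3, where Idh1 was 0.21. With weights and without COM-4 to COM-6, respectively, Idh3a was −0.26 and −0.30, Ogdh −0.21 and −0.26, Suclg1 −0.064 and −0.075, Sdha −0.050 and −0.057, and Fh1 −0.21 and −0.24. Against NC, 5 members passed in COM+Met with median-of-ratios size factors and 8 with quantile normalisation. Left-out libraries change the samples compared, and other causes were not tested. Read depth is unknown, which leaves the precision of low values unknown.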
